A study of Homo sapiens with 24 samples.

Results

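The genes described here are 8 parts of the switch that lets a cell leave G1: the D-type cyclins CCND1, CCND2 and CCND3, their kinase partners CDK4 and CDK6, the inhibitors CDKN2C and CDKN1C, and the retinoblastoma gene RB1. They were taken as a named list, and every probe set that the array's annotation gives to 1 of these genes alone was used. Of the 8 genes, 7 were measured, by 16 of the 22406 probe sets that are not controls, and these 7 stand among 11940 named genes. CDKN2C was not analysed here. Where a gene had several probe sets, the one with the highest mean over all 24 arrays stood for it, and the others are given beside it. Values are deposited log2 signals, and the signal of one probe set is not set against that of another.

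D-type cyclins bind CDK4 or CDK6, and the active kinase phosphorylates the retinoblastoma protein. Phosphorylated RB1 releases E2F transcription factors, whose targets include the cyclin E, cyclin A, MCM and PCNA genes needed for DNA replication. Growth factors are known to raise D-type cyclins in many cells. CDKN2C (p18) binds CDK4 and CDK6 themselves, while CDKN1C (p57) belongs to the family of CDKN1A (p21) and CDKN1B (p27), which bind assembled cyclin-CDK complexes.

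The study profiled A2780, a human ovarian cancer cell line, as a Rab25 expressing line and as a line transfected with pcDNA, the empty vector. RAB25 encodes a small GTPase of membrane recycling. Each line was kept in RPMI 1640, deprived of serum for 8 h, and then received EGF at 10 ng/ml, IGF at 10 ng/ml, TGF beta at 5 ng/ml or fetal bovine serum (FBS) at 5%, or left starved. There were 12 Rab25 arrays and 12 pcDNA arrays. Within each line, EGF, IGF, TGF beta and FBS had 2 arrays each and starvation had 4, with equal numbers from experiment 2 and experiment 1. How long treated cells were exposed is not settled: by the protocol it was 24 h for experiment 2 but 8 h for experiment 1, and the source names put 24 h on every treated array. The labels do not say whether a line is 1 clone or a pool. There is 1 transfected line of each kind, so p-values measure the spread between these arrays, and the effect of Rab25 cannot be told apart from other differences between these lines.

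RAB25 averaged 8.65 ± 0.30 on the log2 scale in Rab25 arrays and 5.26 ± 0.25 in pcDNA arrays (SD, n = 12 each), and its ranges did not overlap. Array medians lay between 7.03 and 7.35. Of the ovarian carcinoma markers, PAX8 (11.86), KRT8 (12.75) and KRT18 (13.99) had high mean signals, whereas CDH1 (5.50) and MUC16 (4.95) were low, and EPCAM lay between 4.94 and 5.29 except on 1 array. That array, Rab25 FBS of experiment 1 (EPCAM 8.49), and the Rab25 FBS array of experiment 2 stood apart. In experiments 2 and 1, COL3A1, a fibroblast collagen, was at 11.00 and 12.76 there, against 5.04 to 6.60 on the other 22 arrays, and SCGB2A2, a mammary epithelial gene, was at 8.84 and 8.57, against 5.28 to 5.90. Of the marker lists, 5 of 10 stromal, 2 of 14 breast, 7 of 10 blood, 3 of 9 adipocyte and 0 of 7 endothelial genes were above all other 22 arrays in the experiment 2 array. In the experiment 1 array these numbers were 6, 8, 6, 2 and 1. Of the 13 ovarian carcinoma markers, 3 were above all other 22 arrays in the experiment 2 array and 2 in the experiment 1 array. The share of all genes above the other arrays was not counted, so these numbers have no background beside them. The summed linear level of the stromal list was 8806 to 22020 on the Rab25 FBS arrays and 3952 to 6649 on the others. The sum of the breast list was 1589 to 4077, against 892 to 1359, and that of the blood list 721 to 738, against 507 to 601. The main FBS results of the members and of the lists around them are therefore given with these 2 arrays and, from pcDNA cells, without them. In bulk RNA, more cells of a type and more RNA per cell cannot be told apart, and the part of these markers in the results was not tested.

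**Figure D1:**
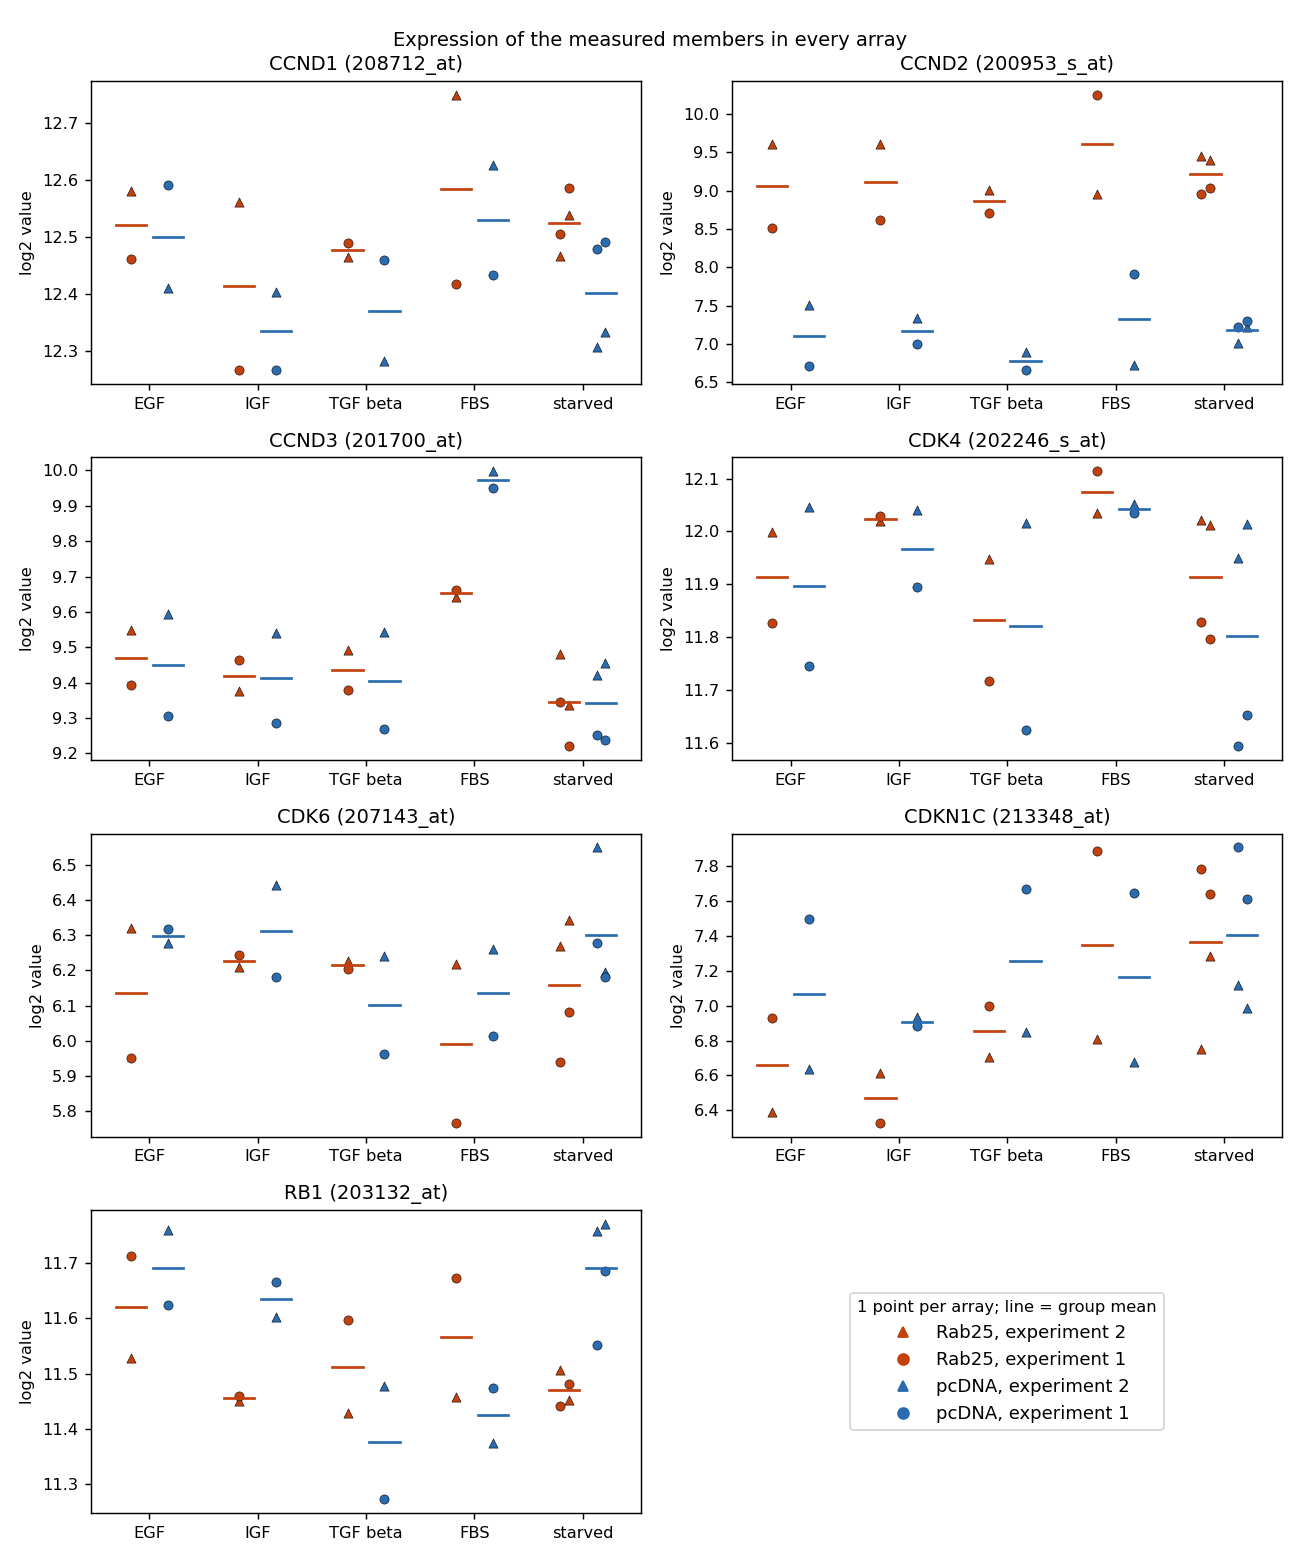
Log2 signal of the leading probe set of each of the 7 measured genes on all 24 arrays, by line and treatment, with the experiment shown by the marker and a bar at each group mean. CCND2 is the gene whose Rab25 arrays (8.52 to 10.25) all lie above the pcDNA arrays (6.66 to 7.92), and CCND3 is raised in the FBS columns of both lines.

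CCND2 was the member that differed between the lines over all conditions. Its leading probe set, 200953_s_at, had a lowest, median and highest log2 signal of 8.52, 9.02 and 10.25 on the 12 Rab25 arrays, against 6.66, 7.11 and 7.92 on the 12 pcDNA arrays. The lines did not overlap and left a gap of 0.60, and lines without overlap, by any gap, were seen for 1.51% of all genes. The difference was 2.06 on the log2 scale (SE 0.19, 95% interval 1.66 to 2.45), or 4.16-fold, with an adjusted p of 5.7e-07 by limma. All 10 comparisons of the lines within 1 condition and 1 experiment had the same direction, from 1.63 to 2.33. In the test of the lines over all conditions, 1 of the 7 members was called (adjusted p under 0.05 over all genes), a smaller share than the 24.7% of all genes that were called. The difference was 2.20 in experiment 2 alone and 1.91 in experiment 1 alone, and 2.00 without both Rab25 FBS arrays (adjusted p 4.3e-07).

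The line difference of CCND2 held in each condition. In starved cells, the 4 Rab25 arrays read 8.96, 9.03, 9.45 and 9.40, against 7.23, 7.30, 7.01 and 7.22 on the 4 pcDNA arrays. The difference there was 2.02 (SE 0.31, adjusted p 0.000385), and 14.8% of all genes were called. Under EGF the Rab25 arrays of experiments 2 and 1 read 9.60 and 8.52, against 7.51 and 6.71 for pcDNA. These groups did not overlap, and the difference was 1.95 (adjusted p 0.0302), with 1.97% of genes called. Under IGF it was 1.94 (adjusted p 0.0284, 2.2% of genes called), under TGF beta 2.08 (adjusted p 0.0202, 2.29%), and under FBS 2.28 (adjusted p 0.00827, 4.15%). Each of these calls rests on 2 arrays a line. The calls under IGF and TGF beta were lost without any 1 of the 4 arrays concerned, that under EGF without any of them but the Rab25 array of experiment 1, and that under FBS without the pcDNA array of experiment 2. Without both Rab25 FBS arrays there is no line difference under FBS to give.

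By group mean, the order of CCND2 within Rab25 cells was FBS (9.60 ± 0.91), starved (9.21 ± 0.25), IGF (9.11 ± 0.69), EGF (9.06 ± 0.77) and TGF beta (8.86 ± 0.21). Within pcDNA cells the order was FBS (7.32 ± 0.84), starved (7.19 ± 0.12), IGF (7.17 ± 0.25), EGF (7.11 ± 0.56) and TGF beta (6.78 ± 0.16), where each ± is an SD of 4 starved or 2 treated arrays. Neighbours in the order within a line lay closer together than the larger of their SDs. The lowest Rab25 group and the highest pcDNA group did not overlap.

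The 3 probe sets of CCND2 did not give 1 answer. 200951_s_at had a lowest, median and highest signal of 5.29, 5.67 and 5.98 in Rab25 cells and 5.18, 5.30 and 5.49 in pcDNA cells. The ranges overlapped, 9 of the 12 Rab25 arrays lay above every pcDNA array, and the difference was 0.33 (SE 0.08, adjusted p 0.0058, with 21.4% of probe sets called). 200952_s_at averaged 5.49 ± 0.07 in Rab25 cells and 5.49 ± 0.13 in pcDNA cells, a difference of -0.02. Both 200951_s_at and 200952_s_at had a low mean signal (5.49 over all arrays), and how far background limits them was not measured. On every array the median of the 3 probe sets is a reading from these low ones. With the median of its 3 probe sets in place of the leading one, CCND2 differed by 0.20 (adjusted p 0.046) over all conditions, and its call was lost in each single condition. The 4.16-fold difference is thus the reading of 200953_s_at.

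**Figure D2:**
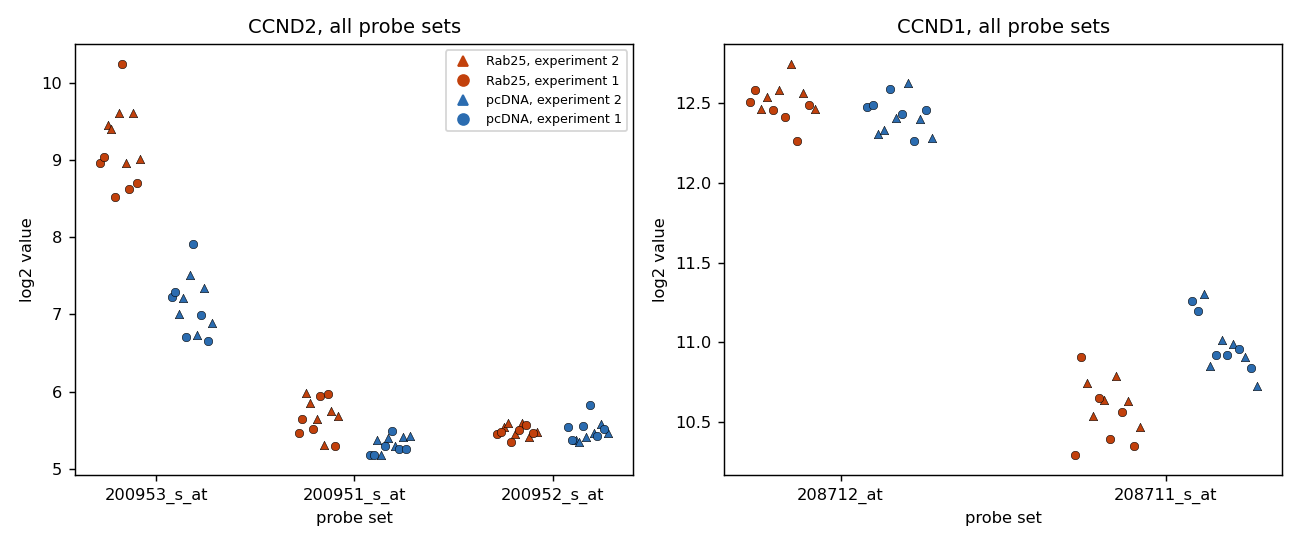
Log2 signal on the y axis for each of the 3 probe sets of CCND2 and the 2 of CCND1, with 1 point for each of 12 Rab25 and 12 pcDNA arrays and the experiment shown by the marker. CCND2 200953_s_at separates the lines, CCND2 200951_s_at differs by 0.33, and CCND1 208711_s_at differs by -0.39.

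CCND1, the cyclin D1 gene, read differently on its 2 probe sets. The leading one, 208712_at, had 12.27, 12.50 and 12.75 as lowest, median and highest in Rab25 cells, against 12.27, 12.42 and 12.63 in pcDNA cells. These ranges overlapped almost fully, and the difference of 0.08 (95% interval -0.03 to 0.19, adjusted p 0.333) did not pass the test. 208711_s_at had 10.29, 10.60 and 10.90 in Rab25 cells and 10.72, 10.94 and 11.30 in pcDNA cells. Of the 12 Rab25 arrays, 9 lay below every pcDNA array on that probe set, and Rab25 was lower in 10 of 10 comparisons within condition and experiment. There the difference was -0.39 (SE 0.07, adjusted p 0.0009), and -0.53 (adjusted p 0.0074) in starved cells. A direction for CCND1 between the lines therefore depends on the probe set.

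CCND3, cyclin D3, had a lowest, median and highest of 9.22, 9.43 and 9.66 in Rab25 cells and 9.24, 9.44 and 10.00 in pcDNA cells, a difference of -0.05 (95% interval -0.14 to 0.03) that was not called. CDK4, a kinase partner of all D-type cyclins, averaged 11.95 ± 0.12 in Rab25 cells and 11.89 ± 0.18 in pcDNA cells, with a difference of 0.05 (95% interval -0.05 to 0.14). CDK6, its close relative, averaged 6.15 ± 0.18 in Rab25 cells and 6.24 ± 0.16 in pcDNA cells, with a difference of -0.08 (95% interval -0.20 to 0.03). For none of these did the lines separate over all conditions, and the intervals leave room for changes of up to 0.20 on the log2 scale. Under FBS alone CCND3 was lower in Rab25 cells, by -0.32 (95% interval -0.52 to -0.13), and the 2 arrays of each line did not overlap. This was not called (adjusted p 0.062 by limma), but was called with treatment-by-experiment terms and without the lowest 40% of genes. It rests on the 2 Rab25 FBS arrays that stood apart.

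CDKN1C, the p57 inhibitor, averaged 7.01 ± 0.53 in Rab25 cells and 7.20 ± 0.44 in pcDNA cells on 213348_at, a difference of -0.22 (95% interval -0.46 to 0.02, adjusted p 0.182). Of its other 5 probe sets, 216894_x_at was called, at 5.98 ± 0.26 in Rab25 cells and 6.20 ± 0.20 in pcDNA cells (difference -0.23, adjusted p 0.0073), with Rab25 lower in 10 of 10 comparisons. The remaining 4 lay between -0.21 and 0.09 and were not called.

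RB1, the pocket protein that the cyclin D kinases phosphorylate, averaged 11.52 ± 0.10 in Rab25 cells and 11.58 ± 0.16 in pcDNA cells, with a difference of -0.04 (95% interval -0.13 to 0.05). In starved cells its 4 Rab25 arrays read 11.44, 11.48, 11.51 and 11.45, against 11.55, 11.69, 11.76 and 11.77 on the 4 pcDNA arrays. Those groups did not overlap, a trait whose share among all genes was not counted for starved cells. The difference of -0.22 had an adjusted p of 0.0504 and was not called. Its second probe set, 211540_s_at, differed by -0.01 over all conditions.

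**Figure D3:**
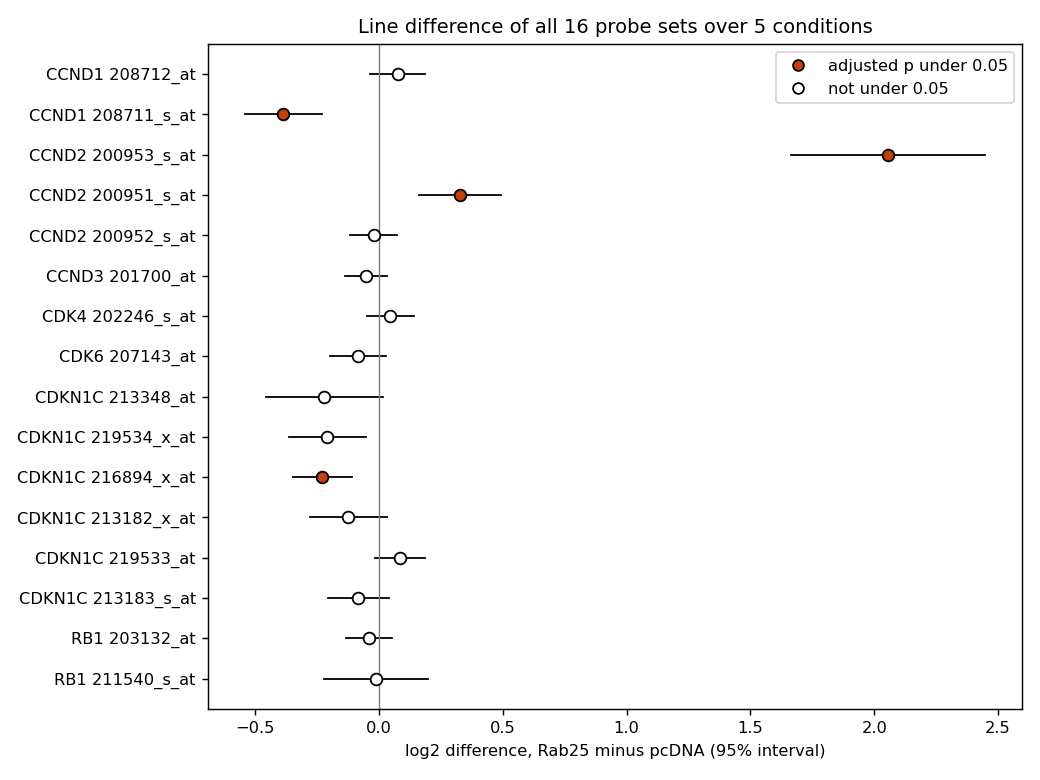
Rab25 minus pcDNA over all conditions for each of the 16 probe sets, in log2 units with 95% intervals. CCND2 200953_s_at stands at 2.06 and the other 15 lie between -0.39 and 0.33.

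The genes around the switch are given by list, each beside the 24.7% of all genes called between the lines. Of 6 other CDK inhibitors, 0 were higher and 2 lower in Rab25 cells, with a list median of -0.04 against -0.01 over all genes. CDKN1B, the p27 inhibitor, fell by 0.59 (adjusted p 1.3e-05), and CDKN2D, a CDK4 and CDK6 inhibitor, fell by 0.23. None of 8 genes of cyclin E, cyclin A and CDK2 was called (median -0.04). Of 11 pocket protein, E2F and DP genes, E2F4 (0.15) was higher, and E2F3 (-0.26) and E2F5 (-0.33) were lower, with a median of 0.03. Of 11 genes for turnover of cyclins and inhibitors, SKP2, the F-box protein that targets CDKN1B, was higher (0.36), while GSK3B (-0.53) and SKP1 (-0.11) were lower. CDC37, the co-chaperone of CDK4, was the 1 of 5 CDK-activating kinase and chaperone genes called (0.15). Several of these calls were lost when single arrays were left out. That of SKP2 was lost without any 1 of 20 arrays, that of E2F4 without any of 9 and that of E2F5 without any of 5. The call of CDC37 was lost without any of 3 (the pcDNA IGF array of experiment 2, the Rab25 IGF array of experiment 1 and the Rab25 TGF beta array of experiment 2), and also without both Rab25 FBS arrays (0.12, adjusted p 0.0942). Those of CDKN1B, CDKN2D, E2F3, GSK3B and SKP1 were kept whichever array was left out.

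Of 18 E2F target genes, PCNA (0.25) and MCM6 (0.51) were higher in Rab25 cells and 0 were lower, with a median of 0.08, beside the same 24.7% of all genes. The call of MCM6 was lost without any 1 of 12 arrays, and the count ran from 1 (without the pcDNA starved array 1-1, among others) to 4 (without the Rab25 FBS array of experiment 2). The median of that list differed between experiments, at -0.13 in experiment 2 alone and 0.27 in experiment 1 alone. Of 19 regulators of D-type cyclin transcription, 6 were higher and 5 lower, with a median of -0.03. EGR1, an immediate early factor, was 1.81 higher (adjusted p 6.5e-07), RELA 0.36, LEF1 0.49 and STAT5A 0.35. The 5 lower ones were FOXO3 (-0.19), CTNNB1 (-0.20), IGF2BP3 (-0.18), BMI1 (-0.20) and IGF2BP2 (-0.11). The call of IGF2BP2 was lost without any 1 of 14 arrays.

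Each treatment was compared with the starved arrays of the same line, which the 4 treatments share, so their values stand side by side and are not independent. Under EGF, 0 of 7 members were called, and 0% of genes passed the adjusted threshold by limma. At an unadjusted p under 0.05 there were 811 genes, of which CDKN1C was the 1 member. CDKN1C read 6.39 and 6.93 on the EGF arrays of Rab25 cells in experiments 2 and 1, and 6.64 and 7.50 in pcDNA cells, against starved ranges of 6.75 to 7.78 and 6.99 to 7.91. The difference was -0.52 (95% interval -0.87 to -0.18) with an adjusted p of 0.515. CCND1 differed by 0.05 (95% interval -0.11 to 0.21) and CCND2 by -0.11 (95% interval -0.68 to 0.46).

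CDKN1C fell under IGF, the 1 of 7 members called, beside 2.71% of all genes. On 213348_at the IGF arrays read 6.62 and 6.33 in Rab25 cells in experiments 2 and 1, against 6.75, 7.28, 7.78 and 7.64 when starved. In pcDNA cells they read 6.94 and 6.88, against 7.12, 6.99, 7.91 and 7.61 when starved. Every IGF array lay below every starved array of its own line. The difference was -0.69 (SE 0.16, 95% interval -1.04 to -0.35, adjusted p 0.0314).

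The fall of CDKN1C under IGF was uneven. It was -0.40 in Rab25 cells and -0.12 in pcDNA cells in experiment 2, and -1.38 in Rab25 cells and -0.88 in pcDNA cells in experiment 1. In experiment 2 alone it was -0.26 (adjusted p 0.501) and in experiment 1 alone -1.13 (adjusted p 0.0060). Its other 5 probe sets lay between -0.32 and -0.06 and were not called, and the median of the probe sets fell by 0.23 (adjusted p 0.110). The call was also lost without any 1 of 7 arrays, namely 3 Rab25 starved arrays (1-1, 1-2 and 2-2), the Rab25 and pcDNA IGF arrays of experiment 1, and 2 pcDNA starved arrays (1-1 and 2-1), where the first digit is the experiment. The IGF response of CDKN1C in experiment 2 minus that in experiment 1 was 0.87 and was not called (adjusted p 0.0568). The starved level of CDKN1C was itself lower in experiment 2 (-0.70), and that difference enters this value with the opposite sign. CDK4 read 12.03 at most under IGF in Rab25 cells and differed by 0.14 over both lines (adjusted p 0.308).

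Around the switch, IGF raised CDC25A, the phosphatase that activates CDK2 (0.38), and the immediate early gene JUN (0.26). It lowered RBL2, a pocket protein of resting cells (-0.49), and the forkhead factor FOXO1 (-0.76). None of the 18 E2F targets was called under IGF (median 0.10, against -0.00 over all genes). Each of the 4 calls was lost without some single arrays: that of JUN without any 1 of 17, FOXO1 without any of 15, CDC25A without any of 9, and RBL2 without any of 4 (pcDNA starved 2-1, Rab25 starved 1-2, and the Rab25 and pcDNA IGF arrays of experiment 1).

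Under TGF beta, 0 of 7 members were called, beside 1.6% of all genes. At an unadjusted p under 0.05 there were 1253 genes, of which RB1 was the 1 member, at -0.14 (95% interval -0.27 to -0.00, adjusted p 0.452). That is an average of 0.04 in Rab25 cells (adjusted p 0.996) and -0.32 in pcDNA cells (adjusted p 0.223), and the difference between these responses, 0.36 (SE 0.13, adjusted p 0.817), was not called. CCND2 was lower in 4 of 4 comparisons within line and experiment, from -0.60 to -0.22, but its difference of -0.38 had an adjusted p of 0.725. CDKN1C was likewise lower in 4 of 4, with a difference of -0.33 (adjusted p 0.503). In the lists of CDK inhibitors, cyclin E, cyclin A and CDK2, and E2F targets, 0 genes were called under TGF beta.

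FBS raised CCND3 and CDK4, so 2 of 7 members were called beside 17.2% of all genes. With 7 genes, 1 call fewer would put that share below the share of all genes. On the FBS arrays of experiments 2 and 1, CCND3 read 9.64 and 9.66 in Rab25 cells, against 9.48, 9.34, 9.35 and 9.22 when starved. In pcDNA cells it read 10.00 and 9.95, against 9.42, 9.46, 9.25 and 9.24 when starved. All 4 FBS arrays lay above all 8 starved arrays. The difference was 0.47 (SE 0.06, 95% interval 0.35 to 0.59), or 1.38-fold, with an adjusted p of 6.7e-05.

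The rise of CCND3 was called in each line. It was 0.31 in Rab25 cells (adjusted p 0.029, with 7.72% of genes called) and 0.63 in pcDNA cells (adjusted p 0.000545, with 6.75% called). The call in Rab25 cells was lost without the FBS array of experiment 1 or either of 2 starved arrays (1-2 and 2-2). It was also lost without the replicate block, with array weights and with the groups compared alone. In experiment 2 alone, with 1 FBS array a line, the calls in Rab25 cells and in pcDNA cells (0.56) were both lost. The difference between these responses was -0.33 (SE 0.11, adjusted p 0.277) and was not called. Without both Rab25 FBS arrays the rise in pcDNA cells was 0.63 (adjusted p 0.00036). In all 4 comparisons within line and experiment CCND3 was higher with FBS, by 0.23 to 0.70.

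**Figure D4:**
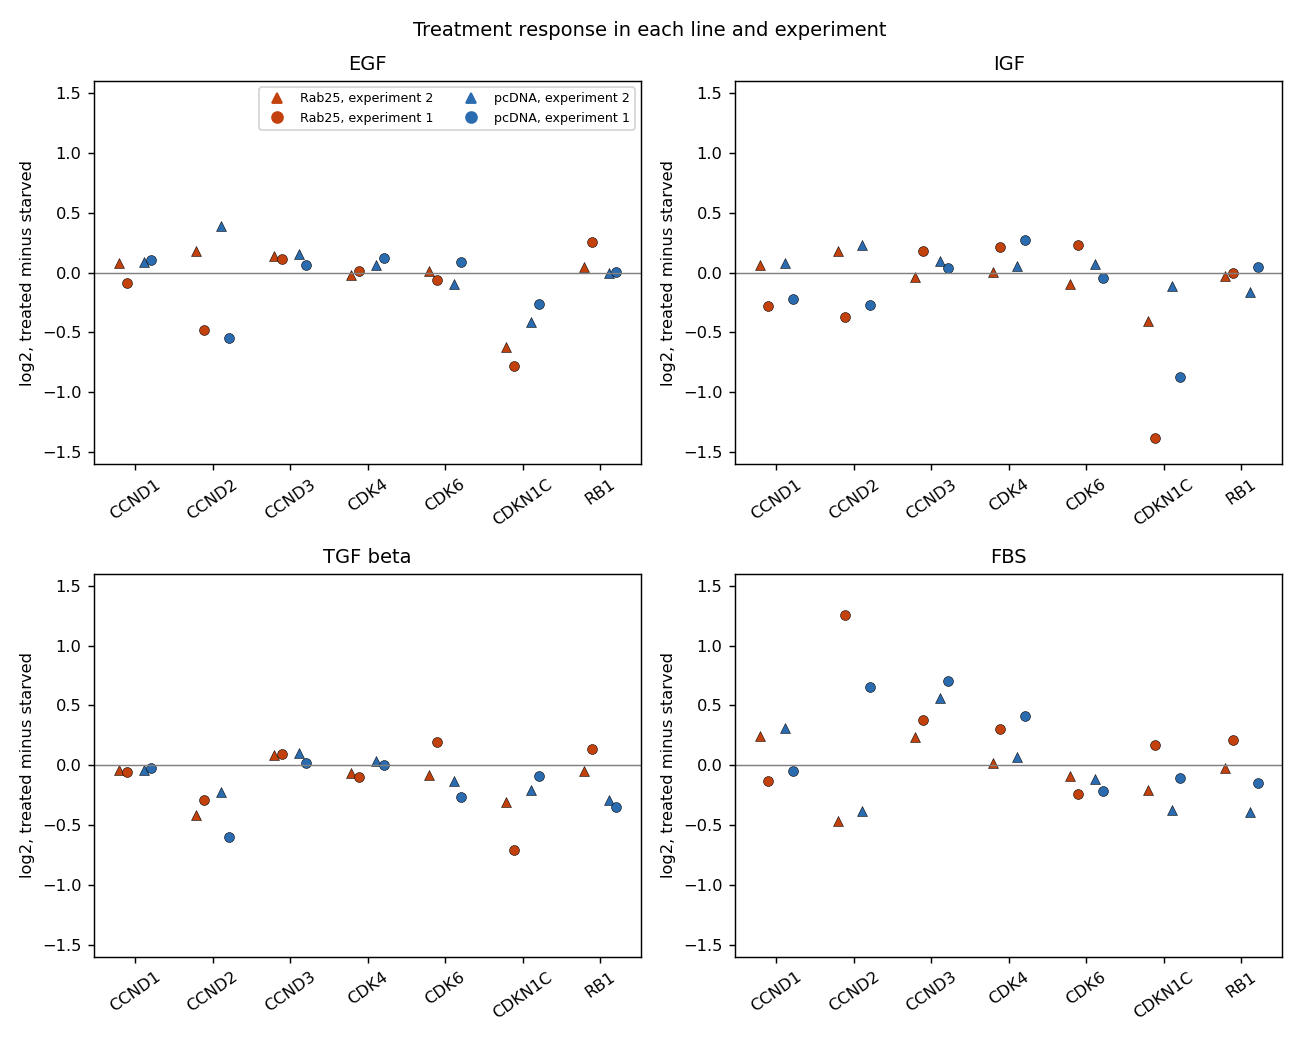
Treated minus starved log2 difference of the 7 genes, 1 panel for each treatment, with 1 point for each line and experiment (the treated array minus the mean of the starved arrays). CDKN1C lies below 0 in all 4 points under IGF (-1.38 to -0.12), CCND3 lies above 0 in all 4 under FBS (0.23 to 0.70), and CCND2 under FBS has opposite signs in the experiments.

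CDK4 read 12.04 and 12.11 on the FBS arrays of Rab25 cells in experiments 2 and 1, against 12.02, 12.01, 11.83 and 11.80 when starved. In pcDNA cells it read 12.05 and 12.04, against 11.95, 12.01, 11.59 and 11.65 when starved. Each FBS array lay above the starved arrays, by a narrow margin in experiment 2 and a wide one in experiment 1. The difference was 0.20 (SE 0.06, 95% interval 0.06 to 0.34, adjusted p 0.0415), and tested over all probe sets its adjusted p was 0.0501. It was 0.04 (adjusted p 0.729) in experiment 2 alone and 0.36 (adjusted p 0.0082) in experiment 1 alone. In pcDNA cells it was 0.24, with an adjusted p of 0.124 in the fit to all arrays and 0.0710 without both Rab25 FBS arrays. The call over both lines was lost without any 1 of 12 arrays, 7 of them from Rab25 cells and 5 from pcDNA cells.

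The stretches just before the starts of CCND3 and CDK4 are shown because these 2 members were called under FBS. They are the 250 bases before the start in RefSeq GRCh38.p14, read 5′ to 3′ along the gene, at chr6:42048689-42048938 on the minus strand for the 1 of 3 CCND3 starts with the most motif matches and chr12:57752311-57752560 on the minus strand for CDK4. Capitals mark GC boxes (GGGCGG on either strand) and E-boxes (CACGTG, which reads the same on both strands).
CCND3: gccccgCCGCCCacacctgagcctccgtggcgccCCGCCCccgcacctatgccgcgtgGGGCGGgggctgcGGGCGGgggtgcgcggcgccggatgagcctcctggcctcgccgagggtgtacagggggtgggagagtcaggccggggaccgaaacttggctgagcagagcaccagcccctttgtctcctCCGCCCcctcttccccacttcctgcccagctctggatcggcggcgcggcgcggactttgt
CDK4: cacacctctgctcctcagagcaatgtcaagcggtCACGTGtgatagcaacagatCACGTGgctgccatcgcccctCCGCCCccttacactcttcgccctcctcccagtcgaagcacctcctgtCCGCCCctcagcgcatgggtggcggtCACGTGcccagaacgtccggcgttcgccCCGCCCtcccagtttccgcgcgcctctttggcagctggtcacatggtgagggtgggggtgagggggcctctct

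The CDK4 window held 3 E-boxes and 3 GC boxes, and the CCND3 window 5 GC boxes and 0 E-boxes. Among 35116 windows of the same length, 6.34% held an E-box and 42.6% a GC box. The 2 other CCND3 starts, with windows from chr6:41941809 and chr6:41939206, had 2 and 0 GC boxes. The printed CCND3 window was picked for its matches, so its count cannot be set against the shares of unpicked windows. Which start these cells use was not measured. The CRE (TGACGTCA, in 1.65% of windows), the AP-1 motif (TGANTCA, 6.57%) and an E2F motif (TTTNGCGC, 1.51%), searched on both strands, did not occur in either printed window. These matches describe letters in the window and no binding was measured. Of the 7 members measured, 4 had a window in the table used.

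The other 5 members were not called under FBS. CCND2 differed by 0.26 (95% interval -0.31 to 0.84, adjusted p 0.545), an average of opposite signs in the 2 experiments that is described with the experiments. CCND1 differed by 0.09 (95% interval -0.07 to 0.25), likewise an average of opposite signs. Of its 4 comparisons within line and experiment, the 2 of experiment 2 were higher and the 2 of experiment 1 lower, from -0.13 to 0.31. CDK6 differed by -0.17 (adjusted p 0.157) and CDKN1C by -0.13 (adjusted p 0.631). RB1 differed by -0.09, and in pcDNA cells by -0.27 (adjusted p 0.082). For no member did the response to EGF, IGF, TGF beta or FBS differ between the lines at the threshold, at which 0.209% of genes were called for FBS and 0% for each of the others.

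Downstream of the switch, FBS raised 5 of the 8 genes of cyclin E, cyclin A and CDK2 and lowered 0, beside 17.2% of all genes called. The list median was 0.46 against -0.03 over all genes. CDC25A was 0.74 higher, CCNE1 0.57, CCNE2 0.83 and CKS2 0.54. CDK2 was 0.37 higher, a call lost without any 1 of 18 arrays. The call of CCNE2 was lost without the pcDNA FBS array of experiment 1, and that of CKS2 without either FBS array of experiment 1. In pcDNA cells without both Rab25 FBS arrays 4 of the 8 were called, with CDC25A at 0.92, CCNE1 at 0.77 and CCNE2 at 1.13, while CKS2 was not called (0.49, adjusted p 0.0749). The count over both lines fell without the pcDNA FBS array of experiment 1, where fewer of all genes were called as well, and rose without the Rab25 FBS array of experiment 2. Of 18 E2F targets, 8 were higher and 0 lower, with a median of 0.41, among them PCNA (0.40), EZH2 (0.40) and MCM3 (0.66), beside the same 17.2%. The calls of MCM6 (0.77) and TK1 (0.51) were each lost without any 1 of 8 arrays, and that of ORC1 (0.53) without any of 7. Those of MYBL2 (0.64), MCM3, EZH2 and PCNA were lost without any of 5, 3, 2 and 1. In pcDNA cells 3 of the 18 were called in the fit to all arrays (PCNA, EZH2 and CCNE1, which both lists hold), beside 6.75% of all genes. Without both Rab25 FBS arrays 6 were called, among them PCNA (0.46), EZH2 (0.52) and MCM3 (0.89). The share of all genes called in pcDNA cells without those arrays is not given here. The count over both lines fell without the pcDNA FBS array of experiment 1, where fewer of all genes were called too. It rose without the Rab25 FBS array of experiment 2. The median of the 18 E2F targets was -0.03 in experiment 2 alone, against 0.89 in experiment 1 alone.

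Of the 6 other CDK inhibitors, CDKN1B fell by 0.87 (adjusted p 6.7e-05) and CDKN1A fell by 0.39 under FBS, and 0 rose, beside the same 17.2% of all genes. SKP2 rose by 0.86, the 1 of 11 turnover genes called, and TFDP1, an E2F partner, rose by 0.29, the 1 of 11 pocket protein, E2F and DP genes called. Of the 19 regulators of D-type cyclin transcription, JUN (0.49) and LEF1 (0.48) were higher, and FOXO3 (-0.48) and TCF7L2 (-0.44) were lower. The call of CDKN1A was lost without any 1 of 15 arrays. That of SKP2 was lost without the pcDNA FBS array of experiment 1, and those of TFDP1 and LEF1 without either FBS array of experiment 1. In pcDNA cells without both Rab25 FBS arrays, CDKN1B (-0.84), SKP2 (1.04), TFDP1 (0.46), JUN (0.49), FOXO3 (-0.50) and TCF7L2 (-0.44) were called. CDKN1A (-0.38, adjusted p 0.186) and LEF1 (0.37, adjusted p 0.130) were not.

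Experiment 2 differed from experiment 1 in 4 of the 7 members over all groups, beside 40.4% of all genes. CCND3 was 0.14 higher in experiment 2 (adjusted p 0.0069), CDK4 0.19 higher (adjusted p 0.0016) and CDK6 0.20 higher (adjusted p 0.0044). CDKN1C fell by 0.58 (SE 0.11, adjusted p 0.000326). The protocol's exposure time, culture and array handling all lie within the experiment number and cannot be told apart.

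In starved cells, 2 of the 7 members differed between the experiments, beside 31.3% of all genes. CDK4 lay between 11.95 and 12.02 on the 4 starved arrays of experiment 2, against 11.59 to 11.83 on the 4 of experiment 1. These did not overlap, and the difference was 0.28 (SE 0.05, adjusted p 0.00133). CDKN1C lay between 6.75 and 7.28 on the starved arrays of experiment 2, against 7.61 to 7.91 in experiment 1, again with no overlap. The difference was -0.70 (SE 0.12, adjusted p 0.000542). The share of all genes with no overlap between the experiments was not counted. Of the other 5 probe sets of CDKN1C, 4 were also lower in experiment 2 over all groups, from -0.36 to -0.22, and 219533_at was not called (0.08), with 34.8% of probe sets called.

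Starved cells of the 2 experiments also differed downstream, in lists set beside the same 31.3% of all genes. Of 18 E2F targets, 16 were higher in experiment 2 and 0 lower, with a median of 0.95 against 0.01 over all genes, among them MCM5 (1.17), MCM2 (1.24), MCM3 (1.38) and MCM7 (1.10), subunits of the replicative helicase. The count was 16 whichever array was left out. Of 8 genes of cyclin E, cyclin A and CDK2, 6 were higher, among them CDC25A (1.40) and CCNE2 (2.01). CDKN1B fell by 0.66 and CDKN1A fell by 0.76. CDKN3 was 0.80 higher. Of 11 pocket protein, E2F and DP genes, RBL1 (1.28), E2F1 (0.97) and E2F8 (1.45) were among 4 higher in experiment 2, and E2F5 (-1.43) was lower. SKP2 was 0.97 higher.

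**Figure D5:**
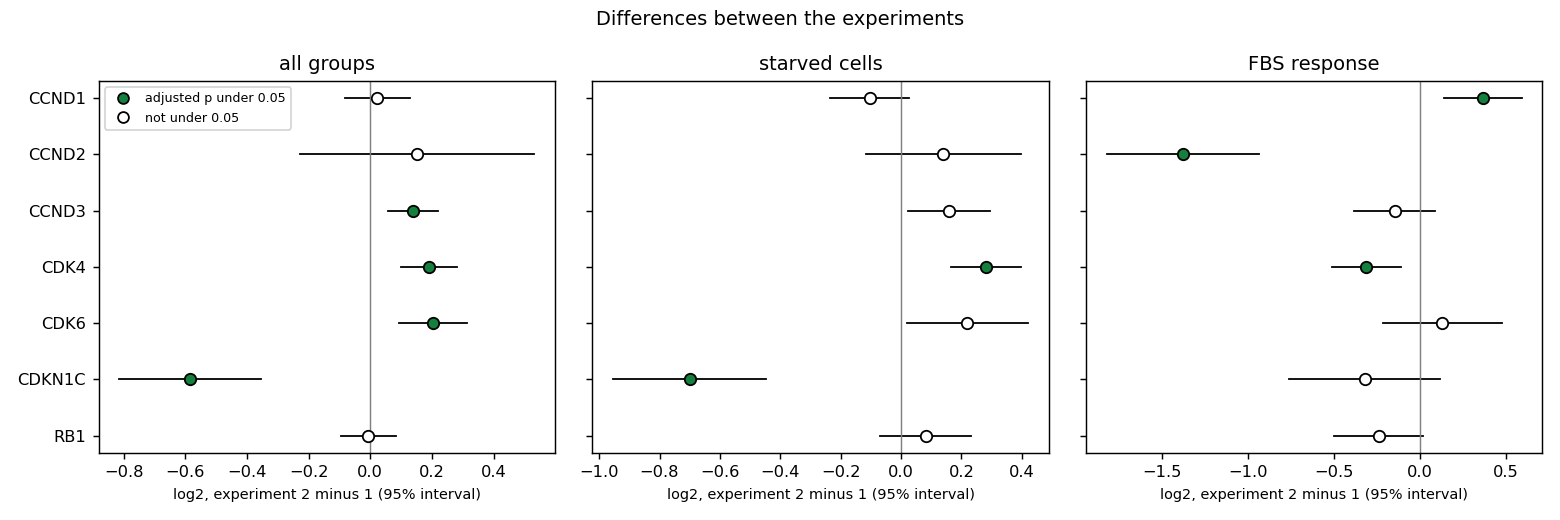
Experiment 2 minus experiment 1 in log2 units with 95% intervals for the 7 genes, over all groups, in starved cells and in the response to FBS. CDK4 is higher (0.28) and CDKN1C lower (-0.70) in starved cells of experiment 2, and the FBS response of CCND2 differs by -1.38.

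The response of CCND2 to FBS had opposite signs in the experiments. Its FBS arrays read 8.96 in Rab25 cells and 6.73 in pcDNA cells in experiment 2, a response of -0.47 in Rab25 cells and -0.38 in pcDNA cells against the starved mean of the same line and experiment. In experiment 1 they read 10.25 in Rab25 cells and 7.92 in pcDNA cells, a response of 1.25 and 0.66. The response was -0.43 (adjusted p 0.0241) in experiment 2 alone and 0.95 (adjusted p 0.000354) in experiment 1 alone. The difference between these responses was -1.38 (SE 0.21, adjusted p 0.000502), and -1.33 (adjusted p 0.0079) from pcDNA cells without both Rab25 FBS arrays. With the median of the 3 probe sets it was -0.49 (adjusted p 0.0607) and was not called.

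CCND1 (0.37, adjusted p 0.0226) and CDK4 (-0.31, adjusted p 0.0290) also differed between experiments in their FBS response, so 3 of 7 members were called beside 22.5% of all genes. Without both Rab25 FBS arrays these differences were 0.30 (adjusted p 0.185) and -0.26 (adjusted p 0.192), and neither was called. The CDK4 call was also lost with each array centred on its median (-0.20, adjusted p 0.323), and without either pcDNA FBS array or any of 3 pcDNA starved arrays (1-1, 2-1 and 2-2). 200951_s_at, the second CCND2 probe set, differed by -0.64 (adjusted p 0.0135), a call that was lost without those arrays. For EGF, IGF and TGF beta, 0 members differed between experiments in their response, beside 0.0838%, 1.42% and 0.402% of genes. CDK4 was also higher in starved cells of experiment 2 (0.28), and that difference enters its FBS response with the opposite sign.

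Of 18 E2F targets, 14 had a lower FBS response in experiment 2 and 0 a higher one, beside the same 22.5% of all genes called. The list median was -0.92 against -0.04 over all genes. MCM5 (-1.25), MCM2 (-1.30), MCM7 (-1.19) and MCM3 (-1.35) were among them, and 9 of the 18 were called without both Rab25 FBS arrays. SKP2 (-1.21) and CDKN3 (-1.42) had a lower response too. Without those arrays SKP2 was called (-1.17, adjusted p 0.0052) and CDKN3 was not (-1.35, adjusted p 0.0513). Leaving out either of the 2 arrays singly is the same fit for this comparison, because the array left behind is then fitted exactly. CCNA1 (-1.51), CDK2 (-0.64) and CKS2 (-0.72) were called among the 8 genes of cyclin E, cyclin A and CDK2, and 0 were called without those arrays. Each FBS response is taken against the starved arrays of the same experiment. The difference between experiments in starved cells, described above, therefore enters these values with the opposite sign, and these results are not independent of it. A change in the starved level and a change in the action of FBS were not separated.

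Likeness over the 24 arrays was measured as the root mean square difference between the deviations of 2 genes from their own means, for the 3 members with the largest SD. Nearest to CCND2 were DSP, a desmosomal plaque protein (0.415 log2 units), AJAP1 (0.468) and PLTP (0.477). Nearest to CDKN1C were BTN3A3 (0.261), FUCA1 (0.279) and FZD2, a Wnt receptor (0.284), and nearest to CCND3 were GMPS, an enzyme of guanine nucleotide synthesis (0.110), HMCES (0.115) and CMC2 (0.116). Line, treatment and experiment differ together over these arrays for every gene, so these values are a description.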

How the data were processed

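RNA of 24 A2780 arrays (Affymetrix HT-HG_U133A Early Access) was compared. The deposited values are the authors' log2 signals, 1 for each probe set and array. MAS5 and RMA are named in the submitters' processing notes with no role, order or version, and a genome build is not given in the sources used here. Of 22930 probe sets, 524 were controls. The platform annotation named 1 gene for 19415 of the rest, several for 125 and no gene for 2866. Each of 11940 genes was represented by its probe set with the highest mean.

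The 10 groups of line and treatment were fitted together with limma 3.58.1 in R 4.3.3, with the experiment number as a replicate block, lmFit and eBayes, and Benjamini-Hochberg adjustment over all genes (threshold 0.05). A second fit with treatment-by-experiment terms tested differences between experiments, and other probe sets were fitted over all 22406. The labels tie each array to an experiment. Deviations of same-experiment arrays from their group means correlated in all 45 pairs of groups (median 0.658, range 0.0924 to 0.858). The fit was tested on simulated data.

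The members and gene lists were chosen with earlier results of these data known. Of 157 listed genes, 147 were measured. From each list described, up to 4 called genes of lowest p were named per comparison. Others were added where their direction or the loss of their call is given. The number of arrays limits the precision. Alternatives covered scaling, array weights, the variance prior, a filter on the lowest 40% of genes, the probe set rule, the experiment term, the samples fitted, each array left out, and both Rab25 FBS arrays left out. Those for the gene lists and further probe sets were chosen after seeing the data. Promoter windows came from RefSeq GRCh38.p14. CDKN2C was not analysed here.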

Additional observations from a re-analysis of the deposited data

Results flagged for a closer look

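In 32 tests for a sample far from the rest of a group of 4, 2 were past the limit, and chance flags about 1 in 20 groups. Both lie in starved pcDNA cells. On CCND2 200951_s_at the arrays read 5.37 and 5.18 in experiment 2 and 5.18 and 5.18 in experiment 1, and the gap of the highest to its neighbour was 0.974 of the range. On CCND2 200952_s_at they read 5.37 and 5.35 in experiment 2 and 5.54 and 5.38 in experiment 1, with a ratio of 0.843. These are different arrays, and the same test did not flag the leading CCND2 probe set.

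The response to FBS differed between experiment 2 and experiment 1 for 3 members by limma. The difference was -1.38 for CCND2, 0.368 for CCND1 and -0.312 for CDK4. Only that of CCND2 was called without both Rab25 FBS arrays.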

How the results depend on the processing

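Over all conditions the line difference of CCND2 was called under every alternative run (0.20 to 2.21), as was the FBS rise of CCND3 over both lines (0.40 to 0.54). In starved cells the higher CDK4 (0.25 to 0.33) and lower CDKN1C (-0.81 to -0.36) of experiment 2 were likewise called throughout. Quantile normalization gave 3 members in starved cells between experiments (CCND3 joined) and array median centring 2 for the FBS response between experiments (CDK4 was lost), and neither moved another count of members. No detection calls were used, so low signals are limited by background that was not measured here. The cause of the changes below was not tested.

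Of single genes, 2 changed sign with a call: CCND1 between the lines with the median of its probe sets (-0.15, adjusted p 0.044) and CCND2 under FBS in experiment 2 alone (-0.43, adjusted p 0.0241). Of other values, of single genes or their further probe sets, 8563 stayed on the same side of the threshold, 82 lost a call and 114 gained one. Direction was compared only where a value was called, so values never called may have changed sign.

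The number of members called changed by over 1.5 times as follows. Without the experiment as a replicate block it was 0 for the lines under EGF, IGF and TGF beta, 0 for IGF over both lines, 1 for FBS over both lines and 0 for FBS in Rab25 cells. With array weights it was 2 for the lines when starved and 0 under FBS, 1 for FBS over both lines, 0 for FBS in Rab25 cells, 1 for TGF beta in pcDNA cells and 1 for the IGF response between experiments. The trended robust prior gave 2 for the starved lines and 1 for that IGF response. Leaving out the lowest 40% gave 2 for the lines when starved, 2 under FBS and 1 for the IGF response. The median of probe sets gave 3 for the lines over all conditions, 0 for the lines when starved and under each of the 4 treatments, 0 for IGF over both lines and 1 for the FBS response between experiments. The groups compared alone gave 2 for the starved lines, 1 for EGF and 1 for FBS over both lines, and 0 for FBS in Rab25 cells. Experiment 1 alone gave 2 for the lines, 2 for IGF over both lines, 1 for IGF in Rab25 cells, 2 for FBS in Rab25 cells and 3 in pcDNA cells, whereas experiment 2 alone gave 2 for the lines and 0 for IGF over both lines and for FBS in either line. Treatment-by-experiment terms gave 2 for the lines over all conditions, 2 when starved and 2 under FBS, 1 for EGF over both lines, 1 for IGF in Rab25 cells and 3 for FBS in pcDNA cells. Smaller changes were 5 (CCND2 joined) with array weights and 3 without the lowest 40%, where CDK6 was not tested, over all groups between experiments, 3 in starved cells between experiments with either, 2 for the FBS response between experiments with array weights, and 3 for FBS over both lines in each experiment alone. Without both Rab25 FBS arrays it was 2 for the starved lines and 1 for the FBS response between experiments.

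Leaving out 1 array at a time gave 1 to 2 members for the lines over all conditions (2 without the Rab25 IGF array of experiment 2) and 1 to 2 when starved, where RB1 joined CCND2 without 1 of the FBS or TGF beta arrays or the pcDNA starved array 1-1. It gave 0 to 1 for the lines under EGF, IGF or TGF beta and 0 to 2 under FBS. For treatments it gave 0 to 1 for IGF over both lines, 1 to 2 for FBS over both lines, 0 to 1 for IGF in Rab25 cells and 0 to 1 for FBS in Rab25 cells. Between experiments it gave 2 to 3 in starved cells, 0 to 1 for the IGF response and 1 to 3 for the FBS response. The FBS call of CDK4 was lost without Rab25 starved 1-1, 1-2, 2-1 or 2-2, either Rab25 EGF array, the Rab25 FBS array of experiment 1, pcDNA starved 1-1 or 1-2, either pcDNA IGF array or the pcDNA FBS array of experiment 1.

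Over all genes, the alternatives called 1665 to 3858 genes for the lines over all conditions, against 2944 as reported. They called 730 to 3273 for the starved lines (1767 reported), 10 to 1298 for IGF over both lines (323 reported), 55 to 498 for TGF beta (191 reported) and 367 to 4109 for FBS (2057 reported). The FBS response between experiments had 1530 to 2918 (2682 reported). In each of the first 4 the lowest count came without the replicate block, and for FBS over both lines with array weights.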
